A study of Homo sapiens with 4 samples.

Results

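The endoplasmic reticulum (ER) folds secreted and membrane proteins, and this report describes 36 human genes that build, guard and clear that compartment, in neuroendocrine tumour cells after knockdown of DAXX. They were chosen by symbol: stress sensors, chaperones, disulfide enzymes, the machinery of ER-associated degradation (ERAD, the route by which misfolded proteins are pulled out of the ER and destroyed) and components of translocation and ER exit. On the arrays 35 of the 36 had a probe set annotated to that gene alone, and all 35 passed the filter on low signal, out of 14648 genes that passed it. SYVN1, the ubiquitin ligase HRD1 of the ERAD complex, shared its probe set with another annotated gene and was left out.

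Total RNA of 4 cultures was hybridised to 4 Affymetrix 3' expression arrays, 1 array per group. The groups were NCI-H727 cells with siRNA against DAXX (DAXX-KD), NCI-H727 cells with a negative control siRNA (DAXX-NC), QGP1 cells with DAXX siRNA and QGP1 cells with the control siRNA. NCI-H727 is a human bronchial and QGP1 a human pancreatic neuroendocrine tumour line, and every culture was electroporated with siRNA at a final 50 nM, the controls included. The labels give 2 siRNAs against DAXX, with no word on whether they were pooled; the time between electroporation and harvest is not given in the sources used here. Line names were taken from the titles, because other label fields conflict with them: both NCI-H727 samples have QGP1 as their source, and every sample is described as ALDH high QGP1. Per its title, the series concerns tumour suppression by DAXX, a chaperone that loads histone variant H3.3 into silent chromatin.

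All values are log2 signals made by the authors with RMA, in which 1 unit is a 2-fold change, and differences are DAXX-KD minus DAXX-NC within a line. Signals of different genes are not comparable, because each probe set binds with its own strength. In such bulk RNA, fewer cells of a type and less RNA per cell cannot be told apart. The DAXX signal was 6.14 in DAXX-KD and 7.35 in DAXX-NC NCI-H727 cells, and 6.56 in DAXX-KD and 8.52 in DAXX-NC QGP1 cells. All 9 neuroendocrine markers with a probe set lay above the filter level of 4.85 in every array, with a median of 11.4 in both NCI-H727 arrays, 11.5 in DAXX-KD QGP1 and 11.6 in DAXX-NC QGP1. The 9 fibroblast and endothelial markers had medians from 4.92 to 5.31 and the 5 measured leukocyte markers from 4.92 to 5.36 over the 4 arrays; 5 of the 9 and, by line, 4 (NCI-H727) or 3 (QGP1) of the 5 reached the filter level. The part of such markers in the results was not tested. One array per group allows no replicate error. As a yardstick, probe sets of the same gene disagreed in their knockdown difference with an SD of 0.275 in NCI-H727 and 0.202 in QGP1, a spread that holds no error between cultures.

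When unfolded proteins gather in the ER, 3 membrane proteins sense them: ERN1 (IRE1), EIF2AK3 (PERK) and ATF6. ERN1 splices XBP1 mRNA so that it encodes an active transcription factor, ATF6 is cut in the Golgi to release one, and EIF2AK3 slows translation and raises ATF4. XBP1 and ATF6 then raise chaperones and ERAD components, a system that hormone-secreting cells depend on because of the amount of peptide precursor they fold. The arrays give 1 value per probe set and do not separate spliced from unspliced XBP1 mRNA.

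ATF6 and XBP1 act on many of these genes through a DNA element, the ER stress response element (ERSE). It was read in the promoter windows. Many members belong to the system that ATF6 and XBP1 raise, so a high share of matches among them is no independent result. RefSeq windows of GRCh38.p14, from 250 bases before to 50 bases after a gene's start, were present for 32 of the 36 genes. The ERSE, read as CCAAT, any 9 bases and CCACG on either strand, was found for 8 of these 32 genes (25%), against 7 of 11670 other measured genes (0.06%) and 25 of all 27305 genes with a window (0.0916%). The shorter ERSE-II, read as ATTGG, any 1 base and CCACG on either strand, was found for 3 of the 32 (9.38%), against 14 of the 11670 (0.12%) and 19 of all 27305 (0.0696%). No member held both. The stretches below are those of the 6 genes with a match whose array values are described in full further on, each 5′ to 3′ on the gene's strand, with the fixed letters of the element in capitals (a match on the opposite strand shows as its reverse complement).
XBP1: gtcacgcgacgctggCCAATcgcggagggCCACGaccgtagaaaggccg
HSPA5: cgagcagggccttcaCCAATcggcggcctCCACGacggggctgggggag
CALR: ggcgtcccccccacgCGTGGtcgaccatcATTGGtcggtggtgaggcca
ERO1B: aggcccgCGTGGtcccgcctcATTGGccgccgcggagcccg
HERPUD1: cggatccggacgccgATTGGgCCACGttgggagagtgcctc
HYOU1: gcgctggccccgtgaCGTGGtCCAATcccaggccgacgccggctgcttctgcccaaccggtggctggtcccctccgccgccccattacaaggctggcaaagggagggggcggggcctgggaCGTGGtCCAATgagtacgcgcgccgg
The first 4 carry an ERSE and the last 2 an ERSE-II, of which HYOU1 holds 2 copies. All lie upstream of the listed start. They are at chr22:28800588-28800636 (minus strand) for XBP1, chr9:125241376-125241424 (minus) for HSPA5, chr19:12938369-12938417 (plus) for CALR, chr1:236282168-236282208 (minus) for ERO1B, chr16:56932010-56932050 (plus) for HERPUD1 and chr11:119057259-119057405 (minus) for HYOU1. The other ERSE matches were in CANX, CRELD2, PDIA6 and HSP90B1, the last with 2 copies, and the other ERSE-II match was in SDF2L1. The element TGACGTGG (UPRE), also searched on both strands, was found for HYOU1 alone (3.12% of the 32, against 1.17% of other measured genes and 0.927% of all 27305), overlapping an ERSE-II. The ATF4-type element TGATGNAAN (CARE) was found for HERPUD1 and CREB3L2 (6.25%, against 3.04% and 4.45%), overlapping no other of these elements. A match is a string of letters, not a measured binding site.

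In NCI-H727, the members were mostly lower in DAXX-KD than in DAXX-NC cells, by modest amounts. The difference was below 0 for 30 of 35 members (85.7%), where 47.3% of all genes were below 0, and the median member differed by -0.19, against 0.02 for all genes. At least 1.5-fold lower were 4 members (XBP1, ATF6, CALR and ERO1B), in a comparison where 4.96% of all genes were that much lower, and 0 members were at least 1.5-fold higher, where 1.6% of all genes were. No member reached 2-fold, against 1.32% of all genes lower and 0.177% higher.

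In QGP1 the members lay closer to their control. The difference was below 0 for 22 of 35 members (62.9%), against 46.2% of all genes, and the median was -0.10, against 0.02 for all genes. That median was -0.03 both with all probe sets of a gene averaged and without x_at and s_at probe sets, whose suffixes mark probes that can bind other transcripts. At 1.5-fold, 0 members were lower (1.32% of all genes) and 0 were higher (1.74%), as at 2-fold (0.232% lower and 0.259% higher), and the extremes were -0.53 for XBP1 and 0.50 for ERN1. In both lines at once, 19 members were below control (22.6% of all genes) and 2 were above it (28.8% of all genes), namely DERL1 and DERL2.

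**Figure D1:**
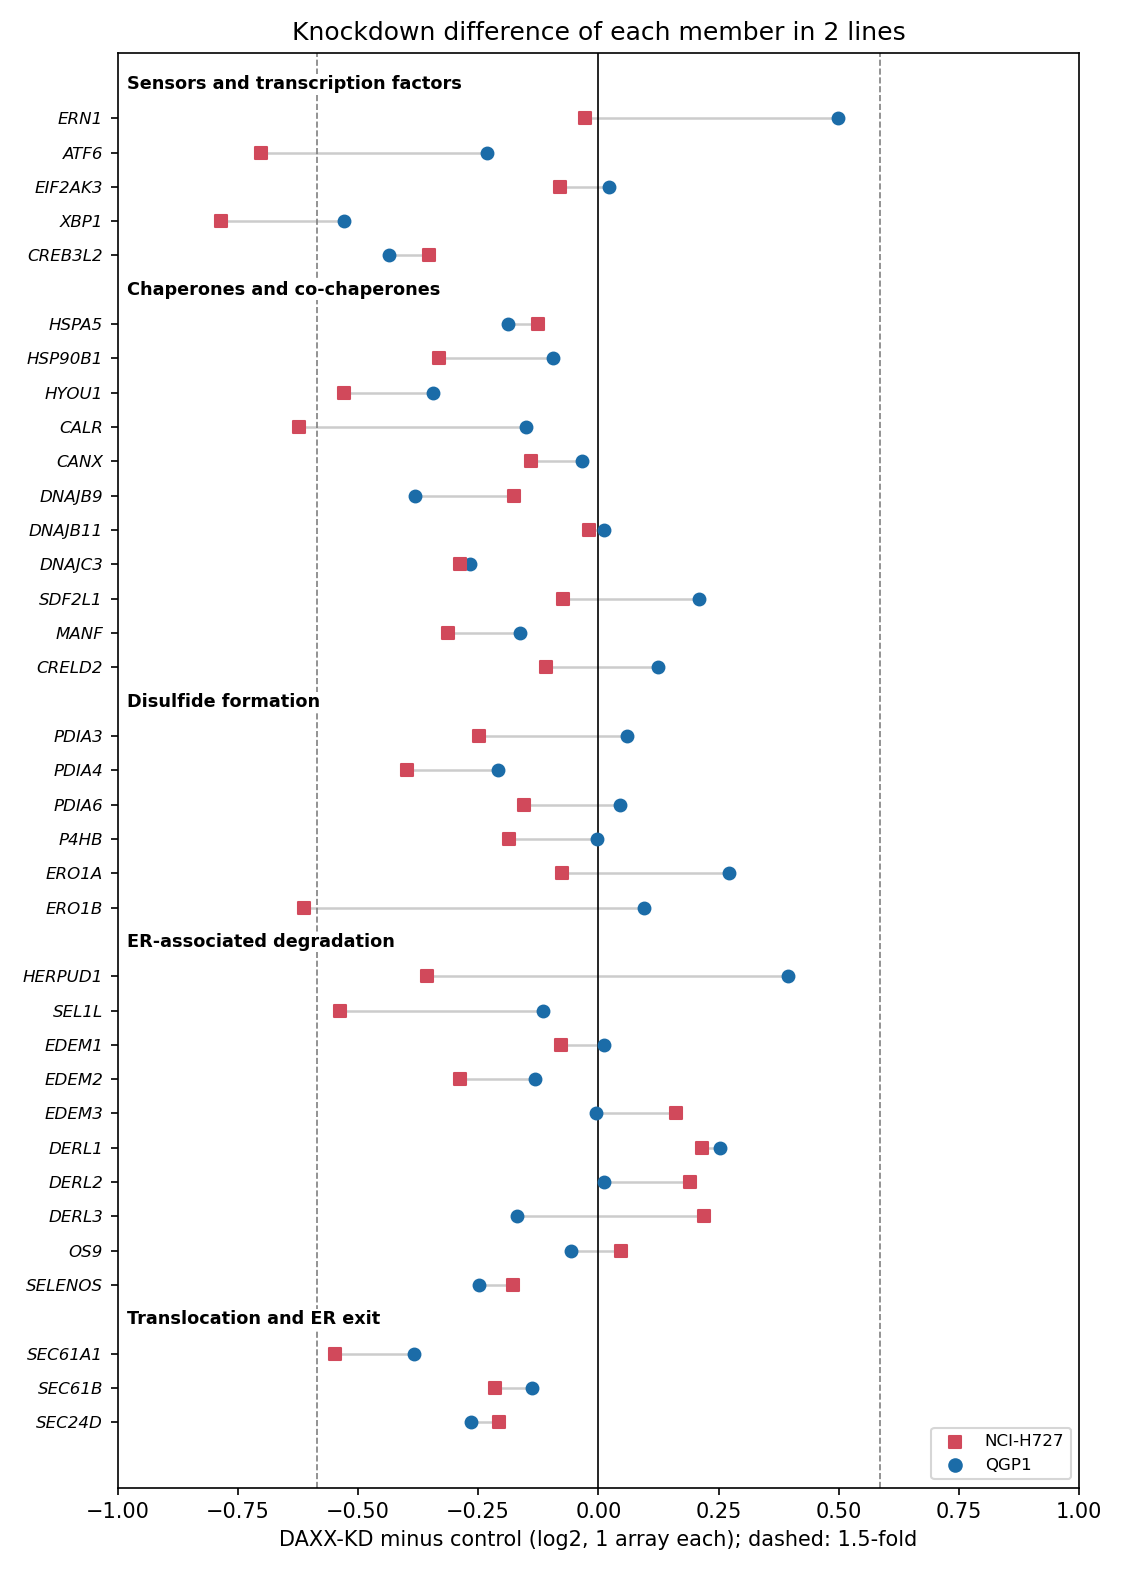
Log2 difference DAXX-KD minus DAXX-NC (x axis) of the 35 measured members, grouped by role down the page, with squares for NCI-H727 and circles for QGP1, 1 array per group; dashed lines mark 1.5-fold. Squares of the sensors, chaperones, disulfide enzymes and translocation genes all lie left of 0, and 4 of them lie left of the 1.5-fold line.

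**Figure D2:**
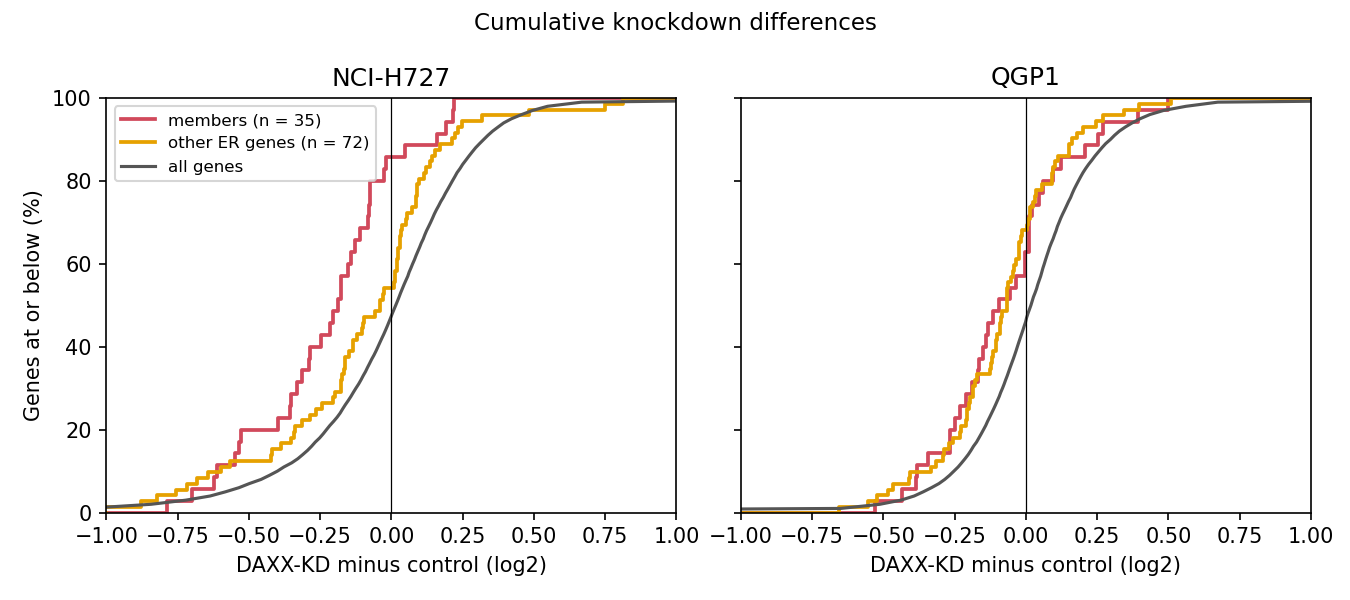
Cumulative share of genes (y axis, percent) at or below each log2 difference DAXX-KD minus DAXX-NC (x axis), for the 35 members, 72 other ER genes and all 14648 genes, in NCI-H727 (left) and QGP1 (right). In NCI-H727 the curve of the members crosses 0 at 85.7%, against 47.3% for all genes; in QGP1 it crosses at 62.9%, against 46.2%.

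Among the sensors and transcription factors, XBP1 was the lowest in DAXX-KD cells of both lines. Its signal was 10.03 in DAXX-KD and 10.82 in DAXX-NC NCI-H727 cells, and 10.01 in DAXX-KD and 10.54 in DAXX-NC QGP1 cells. Both knockdown arrays thus lay below both control arrays, 1.72-fold lower in NCI-H727 and 1.44-fold lower in QGP1. Over both lines the limma fit, with cell line as a block, gave XBP1 -0.66 with an SE of 0.14, at an unadjusted p of 0.00471 and an adjusted p of 0.491; both lines were lower. That is the smallest unadjusted p of the 35 members, and it misses the threshold of 0.05 after adjustment over all genes. A second XBP1 probe set lay under the filter level on average (-0.01 in QGP1 and 0.52 in NCI-H727), and averaging it in gave -0.13 in NCI-H727 and -0.27 in QGP1.

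ATF6 read 7.32 in DAXX-KD and 8.02 in DAXX-NC NCI-H727 cells, and 9.69 in DAXX-KD and 9.92 in DAXX-NC QGP1 cells. It was 1.63-fold lower in NCI-H727 and 1.17-fold lower in QGP1, with a joint difference of -0.47 (SE 0.16, adjusted p = 0.673 in limma). In NCI-H727 the 3 other ATF6 probe sets differed by -0.30, -0.49 and -0.64, whereas in QGP1 they ran from -0.27 to 0.04.

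ERN1 moved differently. Its signal was 7.48 in DAXX-KD and 7.51 in DAXX-NC NCI-H727 cells, and 9.84 in DAXX-KD and 9.34 in DAXX-NC QGP1 cells, a difference of -0.03 in NCI-H727 and of 0.50, or 1.41-fold, in QGP1. A second ERN1 probe set was higher in DAXX-KD cells of both lines, 1.57-fold in NCI-H727 and 1.68-fold in QGP1, so the NCI-H727 value of this gene depends on the probe set. A further, dim probe set differed by 0.07 and 0.01.

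EIF2AK3 read 9.99 in DAXX-KD and 10.07 in DAXX-NC NCI-H727 cells, and 9.60 in DAXX-KD and 9.58 in DAXX-NC QGP1 cells, which is a difference under the probe set spread in either line. CREB3L2, a membrane-bound transcription factor of the same family as ATF6, read 9.75 in DAXX-KD and 10.10 in DAXX-NC NCI-H727 cells, and 9.93 in DAXX-KD and 10.37 in DAXX-NC QGP1 cells. It was 1.28-fold lower in NCI-H727 and 1.35-fold lower in QGP1, though a second probe set differed by 0.15 and -0.02, and one under the filter level by 0.16 and 0.11.

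**Figure D3:**
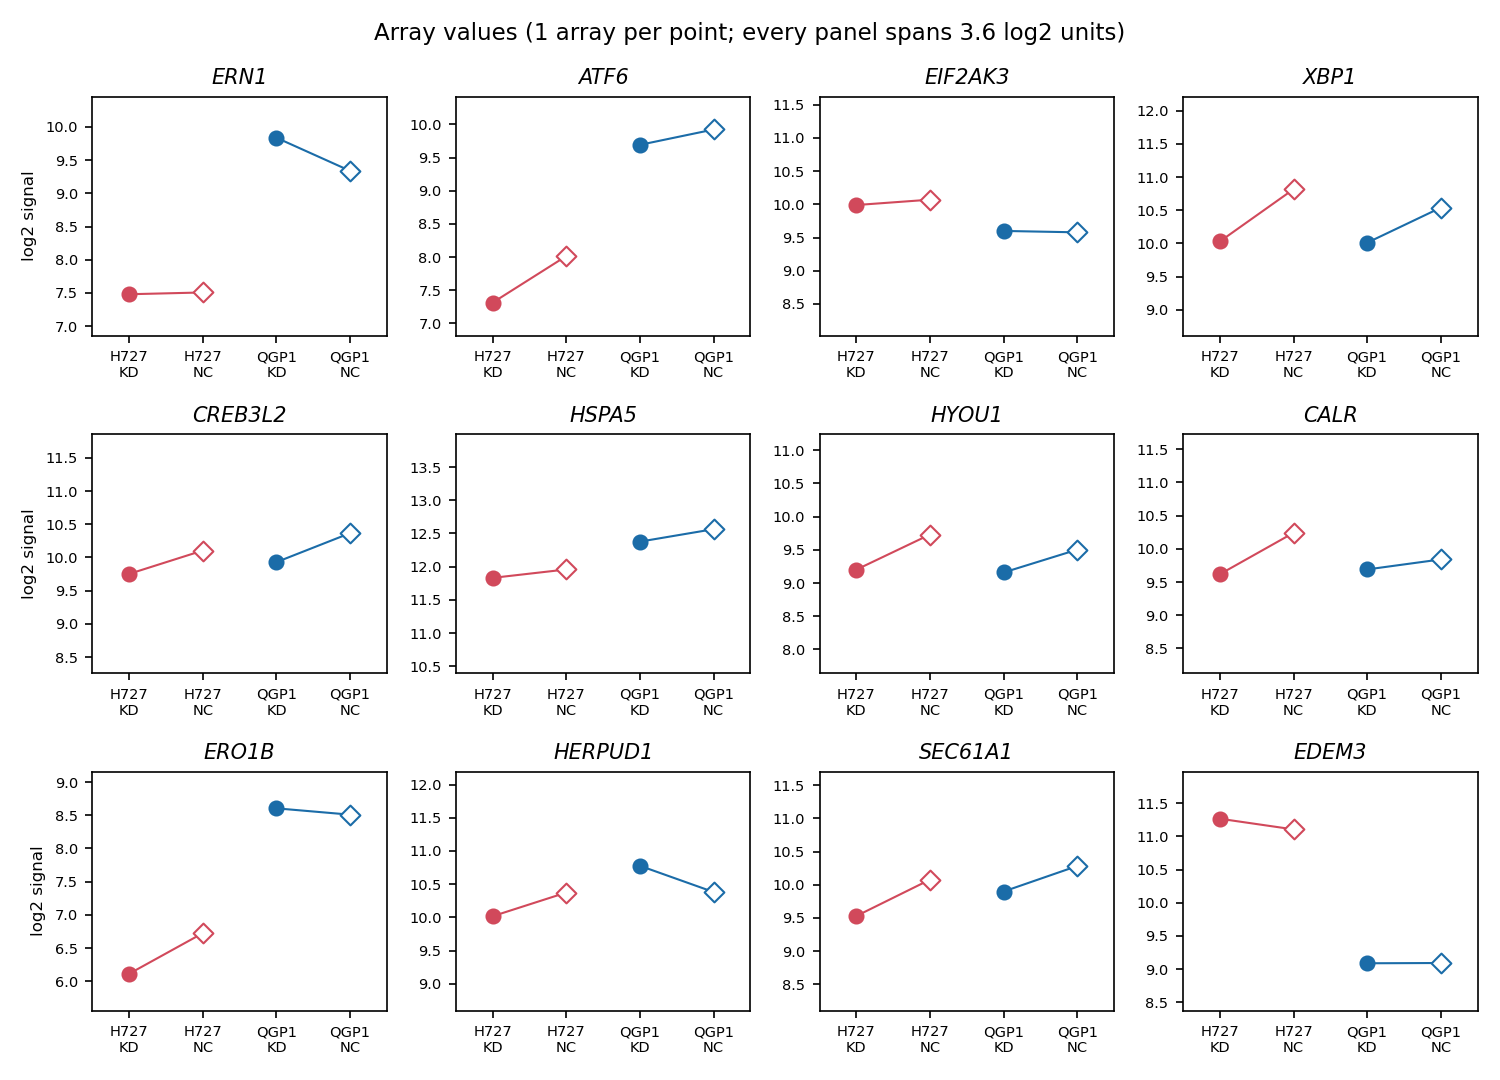
Log2 signal (y axis, every panel spanning the same range) of the 11 members described in full and EDEM3 in each of the 4 arrays (x axis), filled circles for DAXX-KD and open diamonds for DAXX-NC, with a line joining the arrays of 1 cell line. XBP1 is lower in both DAXX-KD arrays (10.03 and 10.01) than in both DAXX-NC arrays (10.82 and 10.54), while HERPUD1 slopes in opposite directions in the 2 lines.

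All 11 chaperones lay below control in NCI-H727 (47.3% of all genes did), with a median of -0.18. In QGP1 8 of 11 did (46.2% of all genes), with a median of -0.15. HSPA5 (BiP), the central chaperone that also holds the sensors inactive, read 11.83 in DAXX-KD and 11.96 in DAXX-NC NCI-H727 cells, and 12.38 in DAXX-KD and 12.56 in DAXX-NC QGP1 cells. These are differences of -0.13 and -0.19, each under the probe set spread. A dimmer HSPA5 probe set gave larger ones in the same direction, 1.63-fold lower in NCI-H727 and 1.57-fold lower in QGP1.

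CALR, a lectin chaperone that binds sugar chains of folding glycoproteins, read 9.62 in DAXX-KD and 10.24 in DAXX-NC NCI-H727 cells, and 9.69 in DAXX-KD and 9.84 in DAXX-NC QGP1 cells. It was 1.54-fold lower in NCI-H727 and 1.11-fold lower in QGP1. All 3 of its probe sets were lower in both lines, from -0.91 to -0.51 in NCI-H727 and from -0.34 to -0.15 in QGP1. HYOU1, a large chaperone that helps HSPA5 release its clients, read 9.20 in DAXX-KD and 9.73 in DAXX-NC NCI-H727 cells, and 9.16 in DAXX-KD and 9.50 in DAXX-NC QGP1 cells. Its joint difference was -0.44 (SE 0.13), with both lines lower and an adjusted p of 0.629 in limma.

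The membrane lectin CANX, partner of CALR, differed by -0.14 in NCI-H727 and -0.03 in QGP1, and HSP90B1, the ER member of the HSP90 family, by -0.33 and -0.10. DNAJC3, a co-chaperone that restrains EIF2AK3, differed by -0.29 in NCI-H727 and -0.27 in QGP1, and all 4 of its probe sets were lower in both lines. DNAJB9, which holds ERN1 inactive, differed by -0.18 and -0.38, and MANF, a secreted survival factor of the ER, by -0.31 and -0.16. DNAJB11, a co-chaperone of HSPA5, differed by -0.02 and 0.01, its stress-induced partner SDF2L1 by -0.07 and 0.21, and CRELD2, an ER stress-inducible protein, by -0.11 and 0.12.

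The disulfide enzymes had unlike medians in the 2 lines. In NCI-H727 6 of 6 were below control (47.3% of all genes), with a median of -0.22. In QGP1 2 of 6 were (46.2% of all genes), with a median of 0.05. ERO1B, an oxidase that recharges protein disulfide isomerases and is known from pancreas, read 6.11 in DAXX-KD and 6.73 in DAXX-NC NCI-H727 cells, and 8.60 in DAXX-KD and 8.51 in DAXX-NC QGP1 cells. It was 1.53-fold lower in NCI-H727 and differed by 0.10 in QGP1. Its second probe set, under the filter level, differed by 0.08 and 0.15, and the mean of both gave -0.27 in NCI-H727. Its relative ERO1A differed by -0.08 and 0.27, and the 2 other ERO1A probe sets had the same signs.

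Of the isomerases, which make and reshuffle disulfide bonds, PDIA4 differed by -0.40 in NCI-H727 and -0.21 in QGP1, and by -0.22 and -0.02 at its second probe set. PDIA3, which works with CALR and CANX, differed by -0.25 and 0.06, and its 2 other probe sets by -0.53 and -0.65 in NCI-H727. P4HB differed by -0.19 and -0.003, and PDIA6 by -0.15 and 0.04.

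The ERAD genes had medians close to 0 in both lines. In NCI-H727 5 of 10 lay below control with a median of -0.02, beside 25 of 25 members of the other roles with a median of -0.21. In QGP1 6 of 10 did, with a median of -0.03, beside 16 of 25. Of all genes, 47.3% lay below control in NCI-H727 and 46.2% in QGP1. The 25 of 25 in NCI-H727 depended on the processing. ERN1 (-0.03) was at 0.23 with probe sets averaged, 0.09 after a second quantile normalization and 0.02 after intensity-dependent centring. CREB3L2 was at 0.15 without x_at and s_at probe sets. DERL1, DERL2 and DERL3, membrane proteins of the retrotranslocation channel, were at 0.22, 0.19 and 0.22 in NCI-H727, and at 0.25, 0.01 and -0.17 in QGP1. All 4 DERL1 probe sets were higher in both lines, from 0.10 to 0.44 in NCI-H727 and from 0.04 to 0.25 in QGP1, whereas the second DERL2 probe set differed by 0.46 and -0.43, and a DERL3 probe set had the opposite signs, -0.20 and 0.22.

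HERPUD1, a short-lived scaffold of the HRD1 complex, was the member with the largest gap between the lines. It read 10.02 in DAXX-KD and 10.37 in DAXX-NC NCI-H727 cells, and 10.78 in DAXX-KD and 10.38 in DAXX-NC QGP1 cells. The control arrays thus lay together, and the knockdown arrays lay 1.28-fold below control in NCI-H727 and 1.31-fold above it in QGP1. A dim second probe set differed by -0.03 and -0.13.

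SEL1L, the adapter of HRD1, differed by -0.54 in NCI-H727 and -0.12 in QGP1, and the 3 further SEL1L probe sets ran from -0.87 to -0.27 in NCI-H727 and from -0.15 to 0.18 in QGP1. EDEM2, one of the mannosidase-like proteins that mark glycoproteins for disposal, differed by -0.29 and -0.13, while EDEM1 (-0.08 and 0.01) and EDEM3 (0.16 and -0.004) lay near control; other EDEM3 probe sets gave -0.28 and 0.29 in NCI-H727. OS9, a lectin that passes marked glycoproteins to SEL1L, differed by 0.05 and -0.06. SELENOS, which recruits the ATPase VCP to the ER membrane, differed by -0.18 and -0.25.

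All 3 genes of translocation and ER exit were lower in both lines (22.6% of all genes were). SEC61A1, the pore of the translocon, read 9.53 in DAXX-KD and 10.08 in DAXX-NC NCI-H727 cells, and 9.90 in DAXX-KD and 10.28 in DAXX-NC QGP1 cells. Both knockdown arrays were below both control arrays, by a joint difference of -0.47 (SE 0.13, adjusted p = 0.587 in limma); a dimmer second probe set differed by 0.36 in NCI-H727 and -0.20 in QGP1, and the mean of both gave -0.09 and -0.29. Both SEC61A1 probe sets carry a suffix, s_at or x_at, that marks possible binding of other transcripts, so the gene had no value without such probe sets. SEC61B, a small translocon subunit, differed by -0.21 and -0.14, and SEC24D, a cargo adapter of COPII vesicles, by -0.21 and -0.27.

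Over both lines no member passed the joint fit. In limma 0 of 35 members had an adjusted p of at most 0.05 (0% of all genes did in either direction). The smallest adjusted p of any gene was 0.374, and DAXX, the target of the knockdown, had 0.374. The fit left 1 residual degree of freedom. It called 48.3% of all genes for the difference between the lines, but no gene for the knockdown, DAXX included. The 0 calls therefore do not show that the members were unchanged. At an unadjusted p under 0.05 there were 5 members, all lower, XBP1, SEC61A1, HYOU1, CREB3L2 and ATF6, where 4.12% of all genes were lower and 2.8% higher at that level. When the limma prior followed signal intensity, 12 members had an unadjusted p under 0.05, as did 8.18% of all genes, and 0 members passed after adjustment, where 5 of all genes did (0.0341%). Among probe sets in place of genes, 58 of 77 member probe sets past the filter were below control in NCI-H727 (75.3%, against 50.0% of 27215 probe sets of all genes), and 47 of 77 in QGP1 (61.0%, against 46.9%).

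Across the 35 members, which share arrays and are not independent replicates, the differences in the 2 lines had a Pearson correlation of 0.470 and a Spearman correlation of 0.496. Across all 14648 genes these were 0.189 and 0.072. For 26 of the 35 the NCI-H727 difference was below the QGP1 difference (53.1% of all genes), by a median of -0.15 over the members. This contrast between lines leaves no residual degree of freedom and was not tested.

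**Figure D4:**
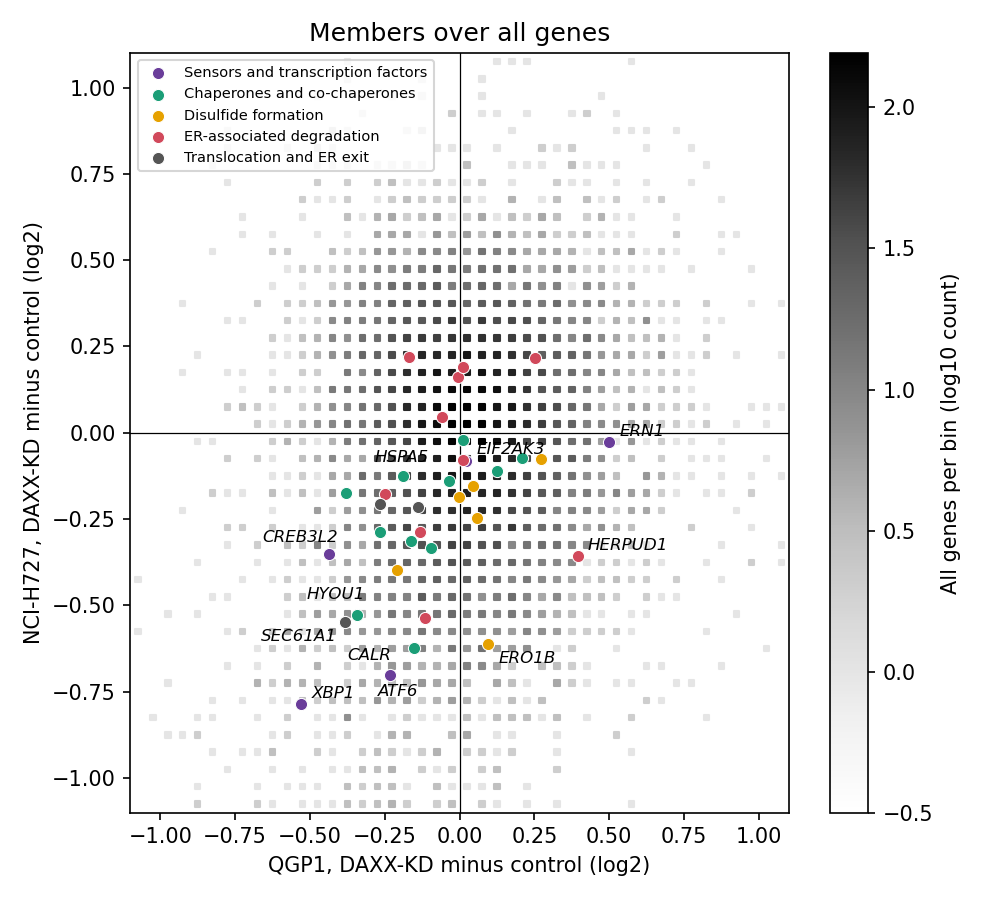
Log2 difference DAXX-KD minus DAXX-NC in NCI-H727 (y axis) against QGP1 (x axis), with the 35 members coloured by role over all genes, shown as grey bins shaded by the log10 number of genes; genes beyond the axes are not drawn. XBP1 (-0.79 and -0.53) lies farthest to the lower left, HERPUD1 (-0.36 and 0.39) to the lower right, and 19 members lie below 0 on both axes.

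The 11 members with an ERSE or ERSE-II match in the window had a median of -0.33 in NCI-H727 and of -0.03 in QGP1. Below control were 11 of 11 in NCI-H727 (47.3% of all genes) and 6 of 11 in QGP1 (46.2% of all genes). The 20 measured members with a window and no match had medians of -0.18 and -0.12, with 17 and 14 of 20 below control. The members with a match therefore lay lower in NCI-H727 and higher in QGP1 than those without, at the medians, and no test was made of this split. It overlaps with role, because HERPUD1 was the only ERAD gene with an ERSE or ERSE-II match. Outside ERAD 25 of 25 members lay below control in NCI-H727, so the counts below control there cannot be told apart from role.

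Other ER genes outside the 36 were also described, 77 in all, of which 72 were measured past the filter. In NCI-H727 39 of 72 were below control (54.2%, against 85.7% of the members and 47.3% of all genes), with a median of -0.04. In QGP1 49 of 72 were (68.1%, against 62.9% of the members and 46.2% of all genes), with a median of -0.07. These medians depend on the probe sets: with all probe sets of a gene averaged the NCI-H727 median was -0.10 for the other ER genes, beside -0.15 for the members, and without x_at and s_at probe sets it was -0.11, beside -0.21. At 1.5-fold, 8 were lower and 2 higher in NCI-H727 (4.96% and 1.6% of all genes), and 1 was lower and 0 higher in QGP1 (1.32% and 1.74% of all genes). Oligosaccharyltransferase and glucosidase genes attach and trim sugar chains. Below control were 7 of 9 in NCI-H727 (77.8%, median -0.20) and 9 of 9 in QGP1 (100%, median -0.12), against 47.3% and 46.2% of all genes. Further folding enzymes had medians of -0.01 and -0.09 over 16 genes, further ERAD genes 0.02 and 0.01 over 19, further translocation genes -0.13 and -0.09 over 15, and further ER exit and retrieval genes 0.01 and -0.03 over 13. UGGT1, which re-tags misfolded glycoproteins for another round with CALR and CANX, was the 1 of the 72 past 2-fold. It read 8.83 in DAXX-KD and 9.98 in DAXX-NC NCI-H727 cells, and 10.32 in DAXX-KD and 10.78 in DAXX-NC QGP1 cells, 2.22-fold and 1.38-fold lower, with an adjusted p of 0.543 in limma.

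Genes listed for the ATF4 branch had values unlike those of the chaperones in QGP1. EIF2AK3 itself differed by -0.08 in NCI-H727 and 0.02 in QGP1, and whether it acted on the listed genes was not tested. Over the 18 listed genes the median was -0.20 in NCI-H727 and 0.61 in QGP1. At least 1.5-fold higher were 0 in NCI-H727 and 11 in QGP1 (1.6% and 1.74% of all genes). At least 1.5-fold lower were 2 in NCI-H727 and 0 in QGP1 (4.96% and 1.32% of all genes). The list was chosen with earlier results of these data known, so these counts are no independent result. ATF4 read 11.60 in DAXX-KD and 11.97 in DAXX-NC NCI-H727 cells, and 12.20 in DAXX-KD and 11.61 in DAXX-NC QGP1 cells, and DDIT3 (CHOP), a stress transcription factor it raises, read 8.08 in DAXX-KD and 8.98 in DAXX-NC NCI-H727 cells, and 9.60 in DAXX-KD and 8.31 in DAXX-NC QGP1 cells. At its brightest probe set HERPUD1 differed in the same direction as ATF4 and DDIT3 in each line, whereas its dim probe set was slightly lower in both lines.

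The lines themselves differed in many of these genes. In the limma fit 22 of 35 members differed between NCI-H727 and QGP1 at an adjusted p of at most 0.05 (48.3% of all genes did), with 15 lower in NCI-H727 (25.1% of all genes) and 7 higher (23.2%). Each line is represented by 2 arrays that differ in treatment, so this spread holds 1 culture per line and treatment. At 2-fold or more, 3 of the called members were lower in NCI-H727 (11.8% of all genes) and 2 were higher (10.6%).

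The sensors ATF6 and ERN1 were among the 3 lower ones. ATF6 averaged 7.67 in NCI-H727 and 9.81 in QGP1, a difference of -2.14 (SE 0.16, adjusted p = 0.000446 in limma, 4.41-fold lower in NCI-H727). At the 3 remaining ATF6 probe sets the NCI-H727 control lay 2.84-fold, 2.18-fold and 1.11-fold below the QGP1 control. ERN1 averaged 7.49 in NCI-H727 and 9.59 in QGP1, a difference of -2.09 (SE 0.17, adjusted p = 0.000567). The second ERN1 probe set was 3.39-fold lower in the NCI-H727 control, and the dim one differed by 0.24.

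EIF2AK3, the remaining sensor, went the other way by a small amount (0.44, SE 0.13, adjusted p = 0.0387), a call lost with probe sets averaged (0.26, adjusted p = 0.112) and without the filter (adjusted p = 0.0516), and XBP1 differed by 0.15 (SE 0.14, adjusted p = 0.419). ERO1B averaged 6.42 in NCI-H727 and 8.56 in QGP1, a difference of -2.14 (SE 0.20, adjusted p = 0.000903). Its second probe set, under the filter level, was 1.49-fold lower in the NCI-H727 control.

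On the higher side, EDEM3 averaged 11.19 in NCI-H727 and 9.09 in QGP1, a difference of 2.09 (SE 0.13, adjusted p = 0.00024). All 3 of its probe sets agreed, with control arrays 4.03-fold, 4.59-fold and 3.86-fold higher in NCI-H727. Each of them carries an s_at or x_at suffix, so EDEM3 had no value without such probe sets. ERO1A averaged 11.68 in NCI-H727 and 9.35 in QGP1 (2.33, SE 0.15, adjusted p = 0.000246), but its probe sets did not agree: the control arrays were 5.67-fold and 2.08-fold higher in NCI-H727 at 2 of them and differed by -0.01 at the other. Without probe sets whose suffix marks binding of other transcripts, ERO1A differed by -0.33 (adjusted p = 0.215).

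Of the chaperones, 6 were lower in NCI-H727 and 2 were higher. HSPA5 was 1.49-fold lower (adjusted p = 0.0159 in limma), CANX 1.48-fold, DNAJB9 1.56-fold, DNAJB11 1.36-fold, MANF 1.36-fold and CRELD2 1.69-fold, while HSP90B1 was 1.59-fold and SDF2L1 1.52-fold higher. The dimmer HSPA5 probe set was 3.72-fold lower in the NCI-H727 control. Isomerases were lower in NCI-H727 as well, PDIA3 1.42-fold, PDIA4 1.59-fold and PDIA6 1.34-fold, although the second PDIA4 probe set differed by only 0.13 between the control arrays. OS9, SEC61B and SEC24D were 1.73-fold, 1.49-fold and 1.37-fold lower, and DERL3 and EDEM2 were 1.74-fold and 1.45-fold higher. Several of these limma calls were lost under another setting. With probe sets averaged, CANX differed by -0.30 (adjusted p = 0.105) and PDIA4 by -0.32 (adjusted p = 0.0724). Without x_at and s_at probe sets, DNAJB9 differed by -0.31 (adjusted p = 0.121), DERL3 by 0.26 (adjusted p = 0.252) and PDIA4 by 0.032 (adjusted p = 0.879). HSP90B1, SDF2L1 and OS9 had no value in that setting. Without the filter the adjusted p was 0.0526 for MANF and 0.0648 for PDIA6, and with treatment left out of the fit it was 0.062 for MANF and 0.055 for SEC24D. SEC24D was also lost after a second quantile normalization (adjusted p = 0.0569) and intensity-dependent centring (adjusted p = 0.0603).

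**Figure D5:**
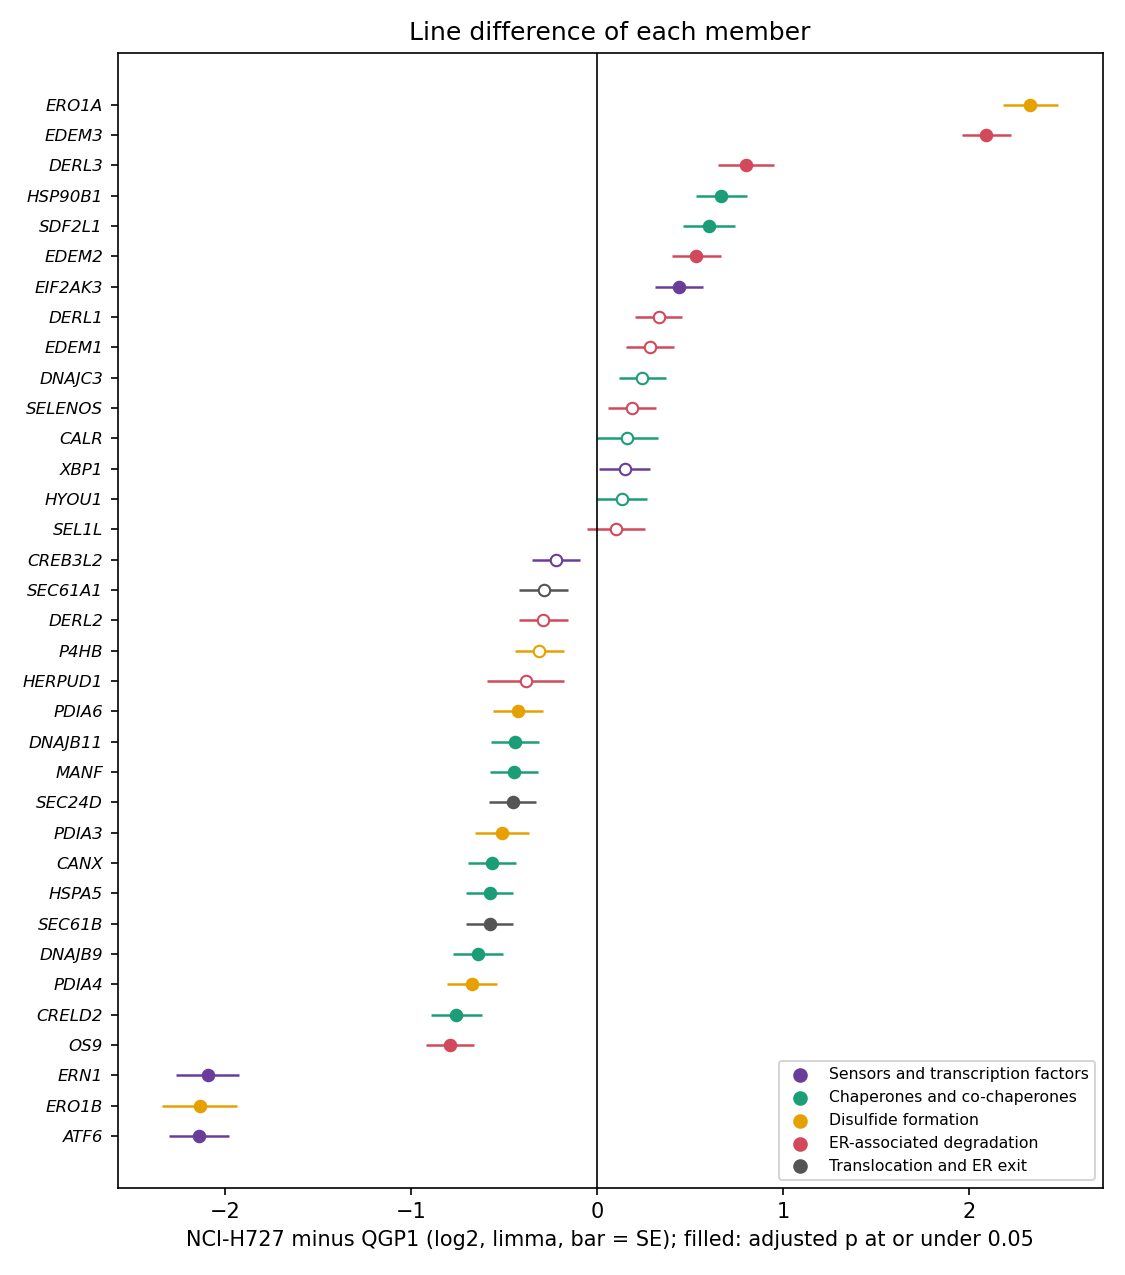
Log2 difference NCI-H727 minus QGP1 (x axis) of the 35 members from the limma fit over 4 arrays, sorted from highest to lowest, with bars for the SE and filled points for an adjusted p of at most 0.05. ERO1A and EDEM3 stand at 2.33 and 2.09, and ERN1, ERO1B and ATF6 between -2.14 and -2.09, with the other members between -0.79 and 0.80.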

How the data were processed

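The authors deposited log2 expression values of 54613 probe sets, computed by RMA; the submitters' processing notes list affy 1.40.0 and R 3.0.3. Because RMA makes array distributions alike, a change common to most genes is not visible, and differences of dim probe sets come out too small. Array medians were 5.31 to 5.36. No depth applies; the number of arrays limits precision.

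By GEO's platform annotation, 41091 probe sets had 1 gene symbol, 1801 several and 11721 none, and the last 2 kinds were left out. Each gene is represented by its brightest probe set, by the 4-array mean, and genes under the 40th percentile of probe set means (4.85) were left out. Members and lists were chosen with earlier results of these data known. Members are named by role. Full array values are given for those at 1.5-fold in a line, the 5 smallest joint p-values, the 5 largest gaps between lines, and XBP1, ATF6, ERN1, EIF2AK3 and HSPA5. Differences within a line have no test. The joint fit used limma 3.58.1 (R 4.3.3; two-sided, Benjamini-Hochberg over all genes, 1 residual and 4.18 prior degrees of freedom), checked on simulated data. Arrays are paired by cell line, per the titles, and nothing says that cultures were repeated, so p-values measure only the spread between these arrays.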

Additional observations from a re-analysis of the deposited data

Results flagged for a closer look

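The knockdown difference of HERPUD1 was -0.36 in NCI-H727 and 0.39 in QGP1, each larger than the spread between probe sets of 1 gene in that line. The ATF4 difference was -0.38 in NCI-H727 and 0.59 in QGP1, and that of DDIT3 was -0.90 and 1.28. At the probe sets used, these 3 genes moved in opposite directions in the 2 lines, with 1 array per group, and the difference between the lines was not tested. Without x_at and s_at probe sets, HERPUD1 was read from its dim second probe set and was lower in both lines (-0.03 in NCI-H727 and -0.13 in QGP1). The mean of its probe sets gave -0.20 and 0.13.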

How the results depend on the processing

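Medians of the members stayed below 0 in both lines under all alternatives run, which were averaging all probe sets per gene, probe sets without the x_at and s_at suffixes, no filter on low signal, a second quantile normalization and intensity-dependent centring, but the QGP1 median shrank to -0.03 under each of the first 2 of these. The number of members at least 1.5-fold lower in NCI-H727 was 4 as reported, 1 with the mean of probe sets, 5 of 27 without x_at and s_at probe sets, 3 after the second quantile normalization, 4 with no filter or with intensity-dependent centring, and 0 at a threshold of 2-fold. In limma the joint fit called 0 members under every alternative, also with no replicate block. Such counts of 0 carry little weight, because DAXX itself had an adjusted p of 0.374 in the main limma fit. With no replicate block in limma, 1 member had an unadjusted p under 0.05. The median there was again -0.16, because in this balanced design the block cannot alter the knockdown difference. Leaving out the filter could not alter member differences either, because every measured member had passed it. Leaving out 1 line left only the difference within the other line. The resulting medians, -0.19 for NCI-H727 and -0.10 for QGP1, repeat those reported, have no test and are no further check. For the line difference the median was -0.29 as reported, -0.18 with the mean of probe sets, and -0.37 to -0.22 when 1 treatment was left out. Without x_at and s_at probe sets 2 members were called higher in NCI-H727 in place of 7, of 27 measured, and PDIA4 and ERO1A turned to 0.032 and -0.33; the cause was not tested beyond the change of probe set. Across settings, 12 further comparisons of a called member fell short of the threshold, for CANX, DERL3, DNAJB9, EIF2AK3, MANF, PDIA4, PDIA6 and SEC24D. With 1 array per group, none of these alternatives measures error between cultures.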
